A study of Mus musculus with 27 samples.

Results

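The genes described here are the nuclear-encoded subunits of oxidative phosphorylation. They were taken as protein-coding mouse GENCODE genes with counts in at least 3 of the 27 libraries. Their symbols begin with Nduf followed by a, b, c, s or v and a digit, with Uqcr, with Atp5, or with Cox and a digit from 4 to 8 and an a, b, c or i, or are Ndufab1, Sdha to Sdhd or Cyc1. Of the 56691 genes in the table, 83 met the rule, 36 in complex I, 4 in complex II, 9 in complex III, 17 in complex IV and 17 in complex V. Ndufa4 was counted with complex IV, where its protein is found, and Atp5s was counted with complex V by its symbol although it is no structural subunit. The other 4 matching identifiers were left out, a second Atp5o and Cox7b2 with no counts and Cox8c and Ndufa4l2 with counts in 1 library each. All 83 passed the filter on low counts.

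Oxidative phosphorylation runs in the inner mitochondrial membrane. Complexes I and II pass electrons from NADH and succinate to ubiquinone, complex III passes them on to cytochrome c, and complex IV hands them to oxygen. Complexes I, III and IV pump protons as they do so, and complex V, the ATP synthase, uses the resulting gradient to make ATP. Most subunits are encoded in the nucleus and a few core subunits in the mitochondrial genome, and resting microglia are known for using this pathway, with a shift toward glycolysis described after inflammatory activation.

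The libraries were of microglia, the resident macrophages of the brain, sorted from tissue around the hematoma of wild-type mice. The mice were specific pathogen free (SPF) without treatment, treated with an antibiotic cocktail (ABX), or germ free (GF). Intracerebral hemorrhage (ICH) was induced with collagenase and sampled on day 3 or day 7, and sham mice received PBS and carry the day 7 label. Each of the 9 groups had 3 libraries, made from very small amounts of RNA with a kit that does not mark strand. The sources used here give no age, no antibiotic dose and no statement that the 3 libraries of a group came from separate mice, so p-values measure only the spread between these libraries. In such bulk libraries, fewer cells of a type and less RNA per cell cannot be told apart. The study asked how the gut microbiota shapes the microglial response to hemorrhage.

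Promoters of respiratory genes are known for binding sites of nuclear respiratory factor 1 (NRF1), a transcription factor of mitochondrial biogenesis. RefSeq promoters (build GRCm38.p6) matched 66 of the 83 members. In the 250 bases before the start, the motif GCGCANGCGC (either strand) was present in 13 of these, 19.7%, against 4.23% of all 27025 genes with a promoter. By complex, it was present in 6 of 32 matched complex I genes, 2 of 3 in complex II, 0 of 5 in complex III, 1 of 13 in complex IV and 4 of 13 in complex V. The ETS-type motif CCGGAAG (either strand), of the family bound by GA-binding protein, was present in 12 members, 18.2% against 7.83%, and TATAAA in 5, 7.58% against 14.3%. The 30-base windows below hold the NRF1 motif (in capitals) of the 4 members among these that passed the test in a comparison at day 7, and of Cox6a1, the second most abundant complex IV transcript per kilobase. They read 5′ to 3′ on the gene's strand, which is the minus strand for all of them. Those of Sdha, Sdhd, Cox6a1 and Atp5c1 overlap an annotated exon. The Atp5c1 window lies inside the GENCODE span of its gene, which ends at base 10080510, and so not before its GENCODE start. Ndufb4 and Sdha have 3 motifs each in the 250 bases and Cox6a1 has 2, of which 1 each is shown. A match describes letters and is no measured binding site.
Ndufb4: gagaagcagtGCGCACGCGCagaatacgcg
Sdha: cgtttacaggGCGCAGGCGCaccaccactc
Sdhd: tcgctggggtGCGCACGCGCggtggcagcg
Cox6a1: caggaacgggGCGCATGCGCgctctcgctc
Atp5c1: cgcctgagctcccGCGCACGCGCactgagt
In GRCm38.p6 these lie at chr16:37654540-37654569 (Ndufb4), chr13:74350319-74350348 (Sdha), chr9:50603909-50603938 (Sdhd), chr5:115349101-115349130 (Cox6a1) and chr2:10080433-10080462 (Atp5c1).

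The libraries held 41664864 to 79090595 counts in genes. They differed in complexity: 7 had fewer than 12000 genes with a count, all 3 of GF day 7, replicates 1 and 2 of ABX day 7 and replicates 1 and 2 of GF sham. Members were low in particular libraries of that kind. In GF sham replicate 1, 35 of the 83 were under 10 CPM (counts scaled to the library size), and in ABX day 7 replicate 1, 20 were, against 3 to 11 in the other libraries. All 10 microglia markers had counts in every group, and their summed level was 24208 to 111624 CPM in the 27 libraries. Markers of other cells were highest at GF day 7 for neutrophils (10 genes, summed 919 to 3914 CPM, against at most 895 elsewhere) and monocytes (10 genes, 853 to 2037 CPM, against at most 1124 elsewhere). In GF sham replicate 1, markers of B cells (2163 CPM, median of all libraries 391), erythroid cells (2690, median 217) and border-associated macrophages (616, median 84.7) were highest. Oligodendrocyte markers were highest in SPF sham replicate 2 (1774 CPM, median 170). Markers of the remaining cell types reached at most 404 CPM (astrocytes). The part of these other cells in the results was not tested.

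Per kilobase of the principal transcript, the members covered a wide range within each complex. In complex IV, Cox4i1, the regulatory subunit IV isoform present in most tissues, averaged 891 CPM per kb over the 27 libraries. It was followed by Cox6a1 with 609 and Cox8a, the smallest structural subunit, with 370.2. Cox5a and Cox5b, the subunits at the matrix side, averaged 213 and 129, Ndufa4 161, Cox7a2 162 and Cox7a2l, a factor that joins complexes III and IV, 189 CPM per kb. In complex III the small subunits Uqcr11 (416 CPM per kb), Uqcr10 (364) and Uqcrb (316) led, above the core proteins Uqcrc1 (187) and Uqcrc2 (94.6) and the catalytic Rieske protein Uqcrfs1 (85.5) and cytochrome c1 (Cyc1, 68.5, the lowest of that complex). In SPF sham alone Uqcr11 (258) and Uqcrb (167) were still above Uqcrc1 (152), but Uqcr10 (141) was below it.

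In complex I the accessory subunits Ndufb8 (397 CPM per kb), Ndufa2 (317) and Ndufb9 (311) led in the mean over the 27 libraries. In SPF sham alone Ndufb8 (253) and Ndufb9 (220.1) were followed by Ndufs8 (204), Ndufs7 (193) and Ndufa9 (183), and Ndufa2 was at 161 CPM per kb. Of the catalytic core, the iron-sulfur proteins Ndufs8 and Ndufs7 averaged 285 and 216 CPM per kb, and the core subunit Ndufs3 177. The proteins of the NADH-oxidizing module were lower, Ndufv2 at 105, the flavin-binding Ndufv1 at 54.8 and Ndufs1 at 48.2. Ndufab1, the mitochondrial acyl carrier protein, averaged 31.5 and Ndufb2 was lowest at 16.3. The annotated principal transcripts of these last genes and of Atp5g1 are 3479, 4371 and 4715 bases long, which lowers a value per kilobase. In complex II the iron-sulfur subunit Sdhb (258 CPM per kb) stood above the membrane anchor Sdhd (128), the flavoprotein Sdha (83.9) and the other anchor, Sdhc (64.3).

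In complex V the catalytic β subunit Atp5b (369 CPM per kb), the coupling factor Atp5j (347) and the membrane subunit Atp5l (298) led in the mean over the 27 libraries. In SPF sham alone Atp5b (307) and Atp5j (219) led too, while Atp5l, at 139, was below the stator subunits Atp5h (206) and Atp5f1 (171) and below Atp5a1 (185), Atp5c1 (174) and Atp5o (150.5). In the mean over all libraries the γ subunit Atp5c1 (288), the α subunit Atp5a1 (279) and the ε subunit Atp5e (263) lay close behind, and the δ subunit Atp5d averaged 159. Of the 3 genes that encode the same rotor c subunit, Atp5g3 (198) was above Atp5g2 (55.6) and Atp5g1 (41.5). Without division by length the order differed, with Atp5g1 (4715 bases) at 196 CPM, Atp5g3 (714 bases) at 142 and Atp5g2 at 40.7. Atp5s, a coupling factor homolog, was lowest at 14.1. Of the summed CPM of all members in SPF sham, complex I took 36.6% ± 2.62 (SD, n = 3), complex V 28.5% ± 3.3, complex IV 16.2% ± 1.32, complex III 11.3% ± 1.5 and complex II 7.42% ± 1.4. Across the 9 groups these mean shares stayed within 34.2 to 40.9% for complex I, 26.5 to 29.0% for V, 16.2 to 19.9% for IV, 10.1 to 12.1% for III and 4.6 to 7.6% for II.

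**Figure D1:**
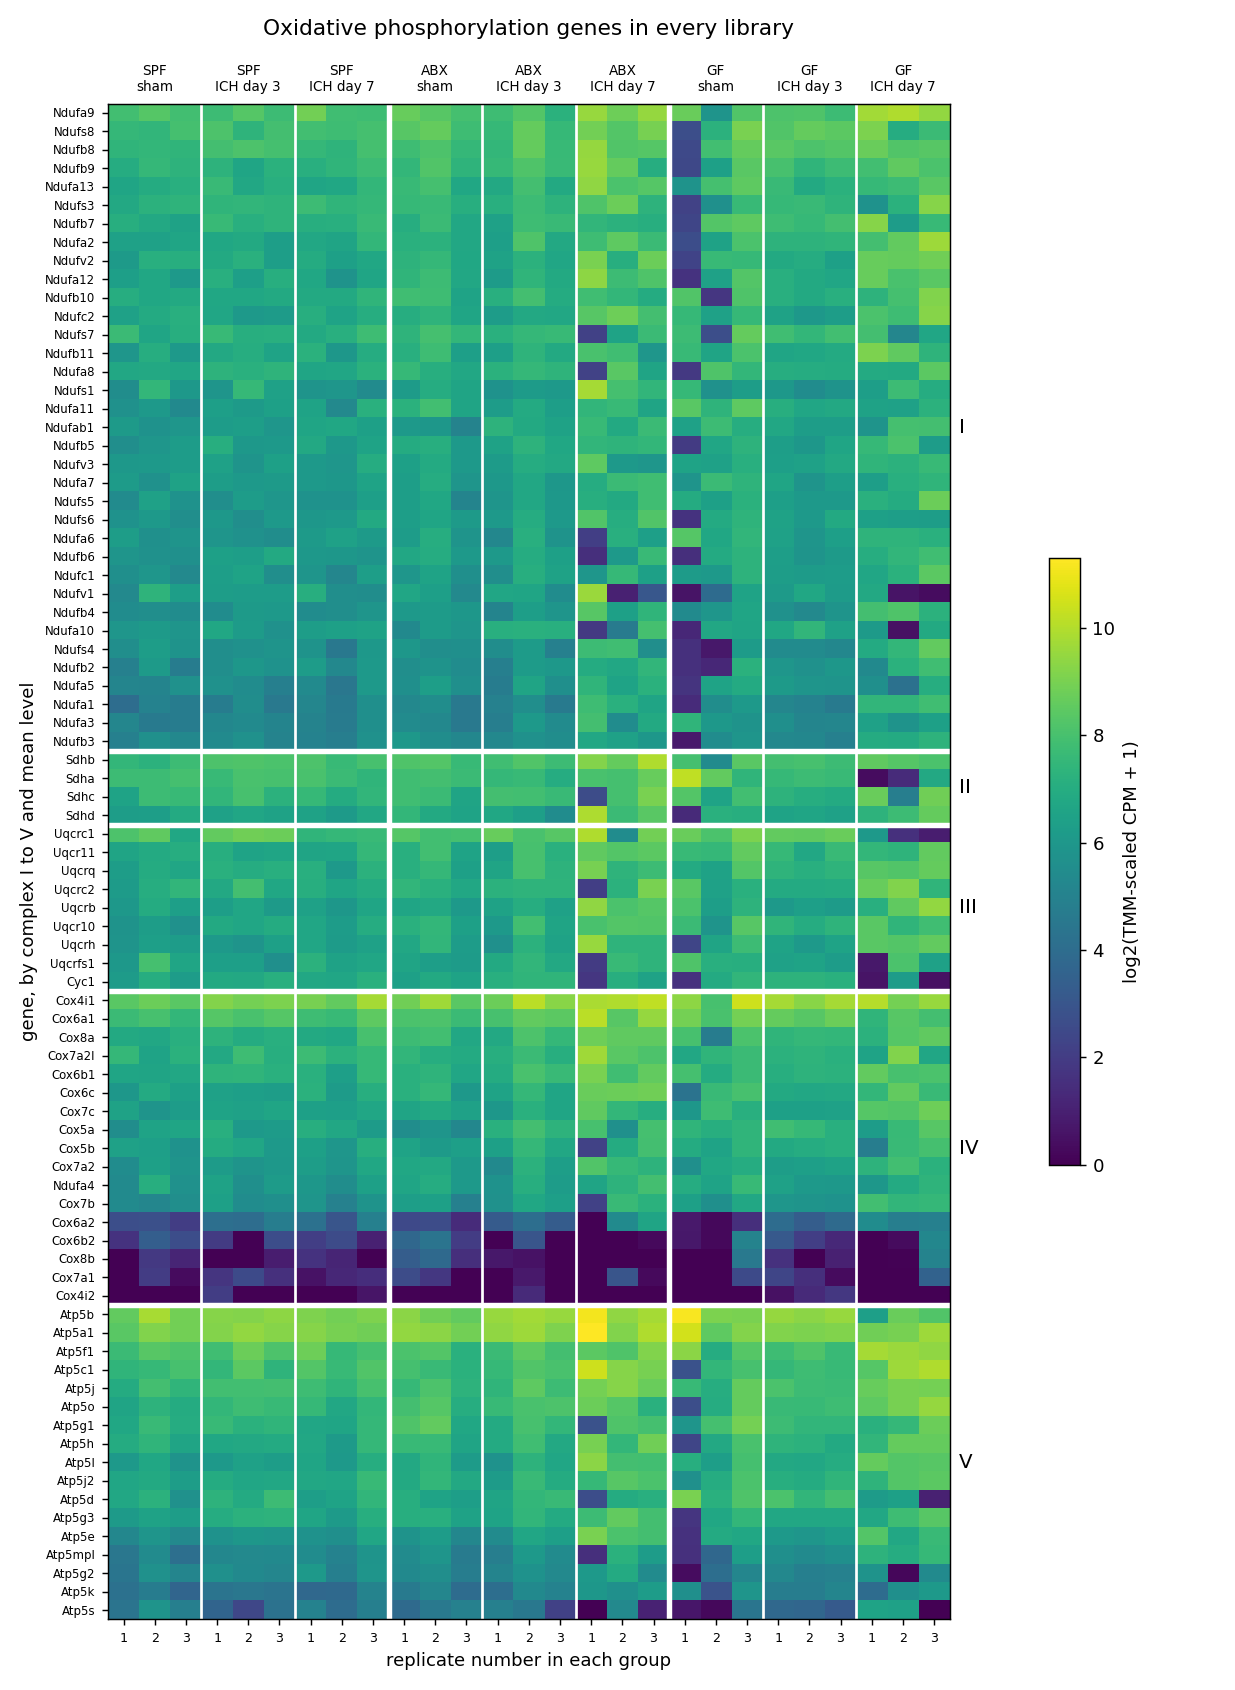
Level of 82 members (rows, by complex and falling mean) in each of the 27 libraries (columns, 3 replicates per group), as log2 of TMM-scaled CPM plus 1 in color. Single dark cells stand among bright ones in GF sham replicate 1, ABX day 7 replicate 1 and the GF day 7 libraries.

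Isoforms of other tissues were low in most libraries. Of the 27 libraries, Cox4i2 was under 10 CPM in 27, Cox7a1 in 26, Cox8b in 24, Cox6b2 in 23 and Cox6a2 in 14. Cox4i2, the isoform known from lung, had counts in 7 of 27 libraries and never exceeded 3.18 CPM, so no fold change is given for it. Cox8b and Cox7a1, isoforms of heart and skeletal muscle, had counts in 15 and 18 libraries, and Cox6b2, the testis isoform, in 21. The 2 highest libraries of Cox8b and Cox6b2 were the same. GF day 7 replicate 3 had 32, 10.8 and 36.5 CPM of Cox8b, Cox7a1 and Cox6b2, and GF sham replicate 3 had 23, 4.8 and 31.8. The other 2 GF day 7 libraries had at most 0.0564 CPM of Cox8b, 0 of Cox7a1 and 0.263 of Cox6b2. Cox7a1 had its second highest value, 6.94 CPM, in ABX day 7 replicate 2, where Cox8b and Cox6b2 had no counts.

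Cox6a2 had the highest mean of these isoforms, 16.7 CPM over the 27 libraries. It encodes the heart and skeletal muscle isoform of subunit VIa, while Cox6a1 is the form of most other tissues. In the sham libraries it was at 5.6, 5.85 and 3.19 CPM in SPF, 4.69, 5.26 and 1.66 in ABX and 0.684, 0.196 and 1.9 in GF mice. On day 3 of ICH it was at 16.5, 15.4 and 26.9 CPM in SPF, 8.37, 15.8 and 8.84 in ABX and 14.7, 9.22 and 13.9 in GF mice. On day 7 it was at 17.7, 6.83 and 29.3 CPM in SPF, 0, 41.3 and 96.2 in ABX and 43.9, 27.6 and 28.9 in GF mice. Every ICH library but 1, ABX day 7 replicate 1 with no count, was thus above every sham library of its own microbiota condition. The mean day 7 response over the 3 conditions was a log2 fold change of 3.54 ± 0.88 (SE, adjusted p = 0.00873) in edgeR's quasi-likelihood test, and the mean day 3 response was 2.43 ± 0.84 (SE, adjusted p = 0.175). Within a condition the change passed the edgeR test only in GF mice on day 7, at 5.17 ± 1.64 (SE, adjusted p = 0.0359). There, 17 of the 27 fits that leave out 1 library kept the call. It was lost without SPF day 3 replicate 1 or 3, ABX sham replicate 1, GF sham replicate 1 or 2, any GF day 3 library, or GF day 7 replicate 1 or 3, with adjusted p up to 0.109 in edgeR. It was also lost in 3 of 8 other settings, limma voom with quality weights (adjusted p = 0.113), no filter on low counts (0.0724) and GC and length offsets (0.065). The mean day 7 response over SPF and ABX alone was 2.72 with an adjusted p of 0.208. Cox6a1 was at 178 to 492 CPM in the 9 sham libraries and 257 to 426 on day 3, and its mean day 7 response was 0.34 ± 0.25 (SE, adjusted p = 0.353) in edgeR. Cox6a2 lies on the minus strand of chromosome 7 (mm10, chr7:128205435-128206387), inside the span of Itgad on the plus strand, and the kit does not tell strands apart. Itgad itself had no counts in 8 of the 9 groups and up to 188 counts in ABX day 3 libraries, where Cox6a2 had 613 to 1112.

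In SPF mice no member passed the test after ICH. On day 3, 0 of 83 passed at an adjusted p under 0.05 in edgeR, against 0.102% of all 17573 genes tested, with 1 higher and 0 lower at an unadjusted p under 0.05 (DESeq2 1, limma voom 0 called), and the median member log2 fold change was 0.24. The medians were -0.07 over all genes tested and 0.02 over the 1655 genes with a mean of at least 100 CPM, and 64 of 83 members were above 0. In 18 members (21.7%) all 3 day 3 libraries were above all 3 sham libraries, against 9.18% of all genes, and in 1 (1.2%) they were below, against 6.98%. Among the 18 were Cox4i1 (sham 338, 428 and 334 CPM, day 3 595, 484 and 536), Atp5a1 (336, 567 and 471, then 583, 708 and 612) and Sdhb (179, 151 and 215, then 284, 289.6 and 275). The core subunits Ndufs3 and Uqcrc1 and the small subunits Uqcr10 and Ndufb8 were there too. The differences were small: Cox4i1 was 0.55 ± 0.48 (SE, adjusted p = 0.995) and Uqcr10 0.88 ± 0.59 (SE, adjusted p = 0.805) on the log2 scale in edgeR. The complexes had similar medians, 0.24 for I, 0.15 for II, 0.29 for III, 0.32 for IV and 0.25 for V. With a correction for GC content and length the median over all members was 0.01.

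On day 7 in SPF mice, 0 of 83 members passed in edgeR against 0.0797% of all genes, with 0 higher and 0 lower at an unadjusted p under 0.05 (DESeq2 1, limma voom 0 called). The median was 0.25, against -0.03 over all genes and 0.07 over the abundant genes. All 3 day 7 libraries were above all 3 sham libraries in 5 members (6.02%, all genes 5.94%), namely Cox6a2, Ndufa10, Ndufab1, Ndufs3 and, named here after its values were seen, Ndufb7, and below in 0 (all genes 4.62%). Between day 7 and day 3 in SPF mice, 0 of 83 members and 0% of all genes passed in edgeR (0 higher and 0 lower at an unadjusted p under 0.05; DESeq2 0, limma voom 0 called), with a member median of -0.02.

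In ABX mice no member passed the edgeR test in a response either. On day 3, against 0.125% of all genes called, there were 1 higher and 0 lower at an unadjusted p under 0.05 (DESeq2 0, limma voom 1 called), and the member median was 0.08. All 3 ICH libraries were above sham in 7 members (8.43%, all genes 9.74%) and below in 2 (2.41%, all genes 10.1%), near the background in one direction and under it in the other. Cox5a, a matrix-side structural subunit of complex IV, had the smallest p. It was at 45.1, 57.7 and 36 CPM in ABX sham and 142, 239 and 159 on day 3, with no overlap, a log2 fold change of 1.96 ± 0.65 (SE, adjusted p = 0.591). The ABX sham values were low: Cox5a was at 45.2, 91.9 and 99.9 CPM in SPF sham and 169, 133 and 166 in GF sham. Its partner Cox5b did not show the step, with 91.8, 70.5 and 81.5 CPM in ABX sham and 84, 184 and 109.5 on day 3.

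On day 7 in ABX mice, 0 of 83 members passed in edgeR (all genes 0.945%), with 24 higher and 2 lower at an unadjusted p under 0.05. DESeq2, with its own dispersions, called 18 and limma voom 4. The member median was 1.09, the abundant genes' 1.04 and that of all genes -0.79. This value rested on the scaling. With plain library totals in place of TMM, the trimmed mean scaling of edgeR, the member median was 0.18, that of the abundant genes 0.13 and that of all genes -1.56. All 3 day 7 libraries were above sham in 37 members (44.6%, all genes 7.8%) and below in 2 (2.41%, all genes 22.4%) on the TMM scale. Summed over the 83 members, ABX day 7 had 24219 ± 6804 CPM against 11477 ± 2944 in ABX sham on that scale (SD, n = 3 each). As CPM of the plain total, the sums were 15054 ± 688 and 13606 ± 2794 and overlapped. Against ABX day 3, 0 members passed on day 7 in edgeR (all genes 0.728%; 22 higher and 0 lower at an unadjusted p under 0.05; DESeq2 13, limma voom 2 called) and the member median was 0.94, or 0.1 with plain totals.

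**Figure D2:**
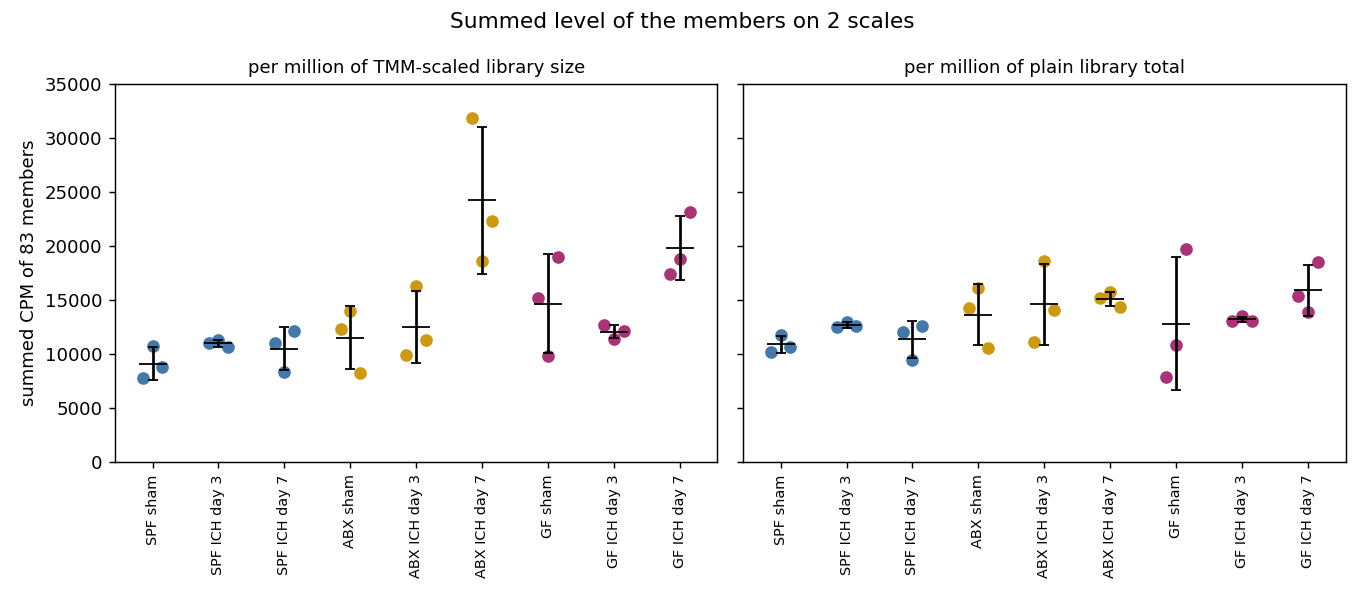
Summed CPM of the 83 members in each library (points), with the group mean and SD (bars, n = 3), of the TMM-scaled library size (left) and of the plain total (right). ABX day 7 lies at 18617 to 31791 on the left, above all SPF, ABX sham and ABX day 3 libraries but overlapping GF day 7 (17414 to 23153) and GF sham replicate 3 (18913), and at 14323 to 15688 on the right, within the range of other groups.

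In GF mice no member passed the test on day 3. In edgeR 0 of 83 passed (all genes 0.00569%), with 2 higher and 1 lower at an unadjusted p under 0.05 (DESeq2 2, limma voom 0 called). The median was -0.2 against -0.42 over the abundant genes, and 0.01 with plain totals. All 3 libraries were above sham in 2 members (2.41%, all genes 10.8%) and below in 6 (7.23%, all genes 2.98%). The GF sham libraries disagreed with one another: their summed member level was 9788 to 18913 CPM, against 11364 to 12604 on GF day 3.

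On day 7 in GF mice 7 of 83 members passed against GF sham in edgeR. Of these, 3 rose, against 1.7% of all genes, and 4 fell, against 12.7%. Among those that fell were a core protein of complex III, the flavoprotein of complex II and the catalytic β subunit of complex V.

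Uqcrc1, a core protein of complex III, was at 415, 272 and 538 CPM in GF sham and 67, 1.95 and 0.883 on day 7, with a log2 fold change of -4.13 ± 1.09 (SE, adjusted p = 0.0136) in edgeR. Sdha, the flavoprotein of complex II, was at 1177, 378 and 167 CPM in GF sham and 0.316, 1.65 and 110.4 on day 7, a change of -3.94 ± 1.14 (SE, adjusted p = 0.023). For both, 2 of the 3 GF day 7 libraries were near the floor and the third was lower than every GF sham library. Atp5b, the catalytic β subunit, was at 2361, 532 and 512 CPM in GF sham and 82.6, 415 and 295 on day 7, also without overlap, -2.10 ± 0.57 (SE, adjusted p = 0.0161). The Uqcrc1 call held in 27 of 27 fits without 1 library and was lost with GC offsets and with GC and length offsets. The Sdha call was lost without GF sham replicate 1 or GF day 7 replicate 2 and with GC and length offsets. The Atp5b call was lost without GF sham replicate 1 or GF day 7 replicate 1, with adjusted p up to 0.184 in edgeR, and in 3 of 8 other settings (voom weights, GC offsets, and GC and length offsets). Atp5d, Atp5a1 and Uqcrc2, of the same complexes, were not called. Atp5d, the δ subunit, was at 519, 143 and 294 CPM in GF sham and 72.8, 84.9 and 1.07 on day 7, without overlap, -2.59 ± 1.01 (SE, adjusted p = 0.0832) in edgeR. Atp5a1 was at 458, 506 and 787 CPM on GF day 7 and 1461, 357 and 581 in GF sham. Uqcrc2 was at 401, 569 and 169 CPM on GF day 7 and 340.4, 86.3 and 145 in GF sham. In Atp5a1 and Uqcrc2 the groups overlapped. Low libraries also occurred among others of the core, in 2 of 3 for Ndufv1 and Cyc1 and in 1 of 3 for Uqcrfs1. On GF day 7, Ndufv1 was at 112, 0.488 and 0.294 CPM, Cyc1 at 0.526, 75 and 0.42 and Uqcrfs1 at 0.652, 269 and 86.8, none of them called.

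The 3 that rose were Ndufa9, an accessory subunit at the junction of the arms of complex I, the γ subunit Atp5c1 and Cox6a2. Ndufa9 was at 419, 56.5 and 298 CPM in GF sham, 283, 288 and 213 on day 3 and 844, 999.6 and 707 on day 7, a rise of 1.72 ± 0.52 (SE, adjusted p = 0.0294) over sham in edgeR. Atp5c1 was at 6.2, 179 and 256 CPM in GF sham and 315, 800.4 and 973 on day 7, 2.25 ± 0.74 (SE, adjusted p = 0.0424), and GF sham replicate 1 was the low library there. The Atp5c1 call held in only 7 of 27 fits without 1 library and in 2 of 9 other settings, and that of Ndufa9 in 23 of 27 and 5 of 9. The Ndufa9 call was lost without GF sham replicate 2 or 3 or GF day 7 replicate 1 or 2. The member median was 0.7, against -2.1 over all genes and 0.26 over the abundant genes, and with GC and length offsets it turned to -0.24. By complex it was 0.73 for I, 0.56 for II, 0.29 for III, 0.62 for IV and 1.11 for V. All 3 day 7 libraries were above all 3 sham libraries in 20 members (24.1%, all genes 5.34%) and below in 6 (7.23%, all genes 11.6%).

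**Figure D3:**
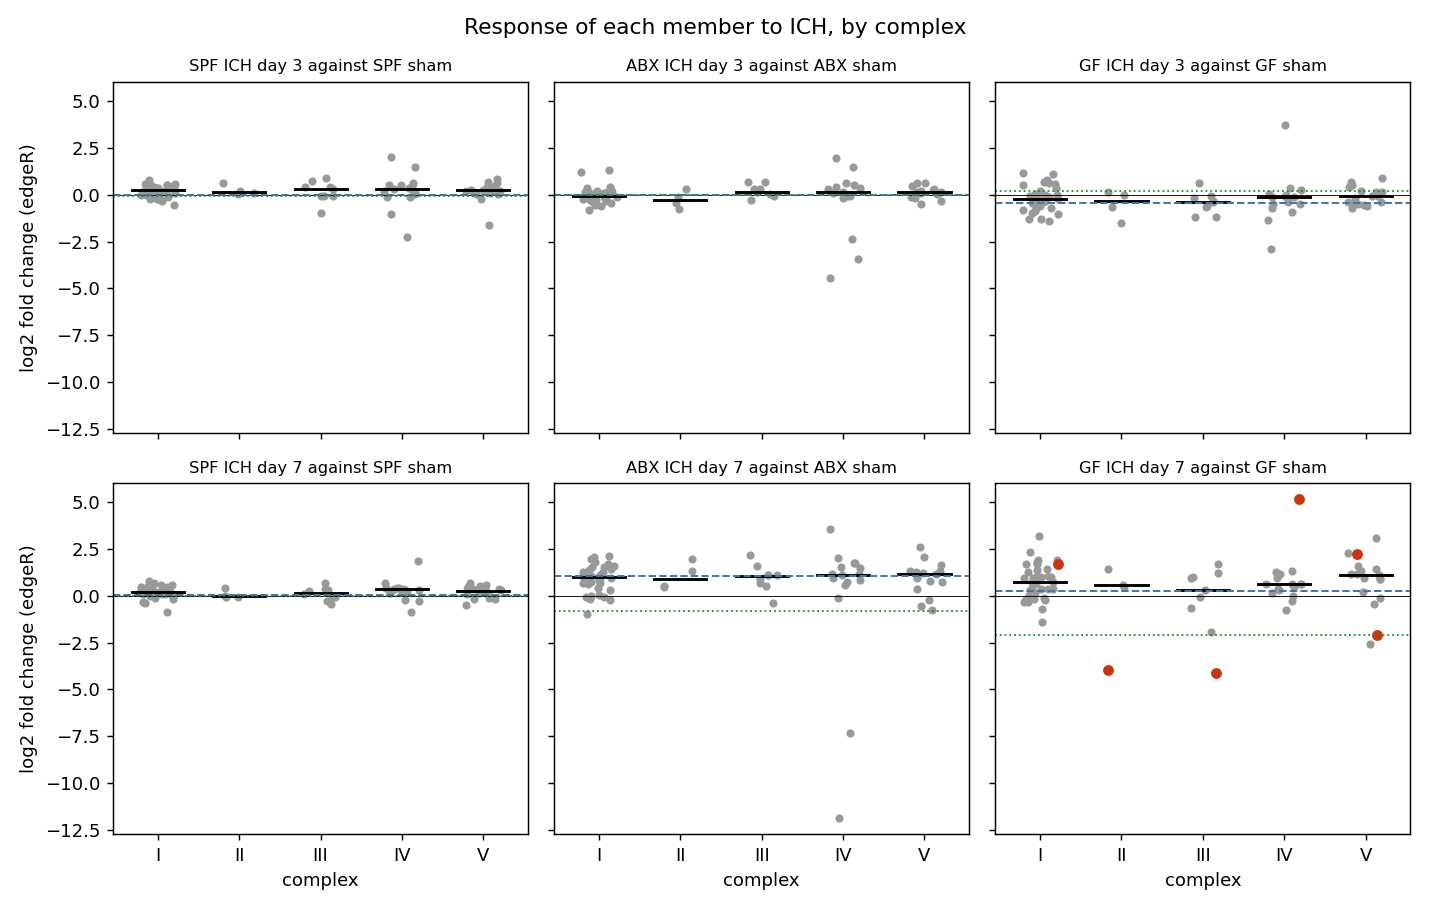
Log2 fold change of 81 members (points, red where the adjusted p is under 0.05) after ICH against sham, by complex, with the median of each complex (black bar), of the 1655 abundant genes (blue, dashed) and of all genes tested (green, dotted). Cox4i2 is not drawn, and the spread is narrow in SPF mice and wide on GF day 7, where the called points lie between -4.13 and 5.17.

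Against GF day 3, whose 3 summed member levels lay within 11364 to 12604 CPM, 9 members passed on GF day 7, 7 higher (all genes 1.83%) and 2 lower (all genes 13.4%). Uqcrc1 was again lower, at -4.05 ± 1.08 (SE, adjusted p = 0.0152) in edgeR. Those higher were Ndufa9, Uqcrb, Ndufb4, Ndufc2, Ndufa1, Cox7c and Atp5f1, 5 of them small accessory subunits. Uqcrb, which binds near the ubiquinone site of complex III, was at 68.5, 83.3 and 73.2 CPM on day 3 and 138, 372 and 698 on day 7, 2.43 ± 0.61 (SE, adjusted p = 0.0102). Ndufc2 was at 89.4, 64.5 and 77.9 CPM on day 3 and 272, 222 and 609 on day 7, 2.25 ± 0.53 (SE, adjusted p = 0.00754). Cox7c was at 84.8, 85.3 and 86.5 CPM on day 3 and 322, 298 and 447 on day 7, 2.05 ± 0.57 (SE, adjusted p = 0.0179). In these 3 genes every day 7 library was above every day 3 library. Ndufb4 (2.23 ± 0.64, adjusted p = 0.0229), Ndufa1 (2.67 ± 0.90, 0.0467) and Atp5f1, the b subunit of the stator (1.72 ± 0.51, 0.0263), were also called higher in edgeR. Of 27 fits without 1 library, the call held in 26 for Ndufc2 and Uqcrb, 21 to 23 for Ndufa9, Ndufb4, Cox7c and Atp5f1, and 5 for Ndufa1. Direction was not stable for all 7 under corrections for base composition, the one with length added after seeing the data: with GC offsets Atp5f1 and Cox7c were at -0.62 and -0.24, and with GC and length offsets Atp5f1, Uqcrb, Ndufa1 and Cox7c were at -0.97, -2.8, -0.22 and -2.96.

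**Figure D4:**
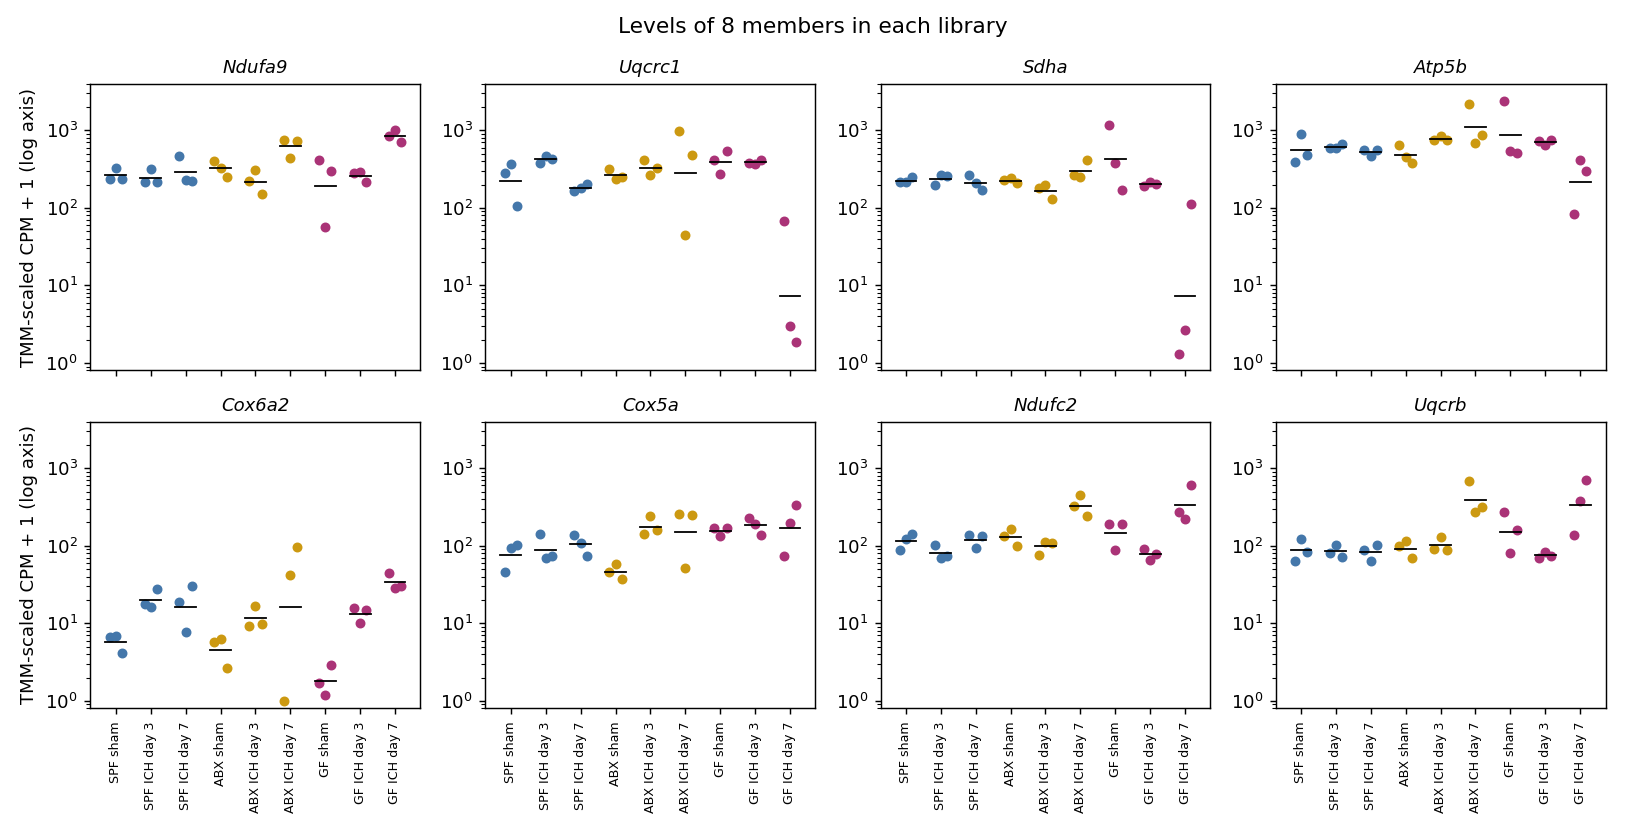
TMM-scaled CPM plus 1 (log axis) of 8 members in each library (points), with the geometric mean of each group (bars), by microbiota condition (blue SPF, ochre ABX, purple GF). Uqcrc1 and Sdha are near the floor in 2 of the 3 GF day 7 libraries, and Cox6a2 is higher in ICH than in sham libraries with 1 exception.

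Set directly against SPF day 7, GF day 7 had 6 called members, 5 higher (all genes 1.08%) and 1 lower (all genes 11.8%). The 5 that were higher in GF mice were Ndufb4 (2.18 ± 0.64), Ndufc2 (1.62 ± 0.52), Uqcrb (2.28 ± 0.60), Cox7c (1.99 ± 0.56) and Atp5l (1.79 ± 0.58), with adjusted p from 0.0163 to 0.0432 in edgeR. Atp5l, a membrane subunit of the ATP synthase, was at 98.5, 68.4 and 131 CPM in SPF and 390.3, 304 and 332 in GF mice. Its call held in 6 of 27 fits without 1 library and that of Ndufc2 in 7. Those of Ndufb4, Cox7c and Uqcrb held in 22, 23 and 25. Ndufb4 was at 44.6, 47.5 and 59.2 CPM in SPF and 242, 292 and 151 in GF mice, without overlap. With GC and length offsets, tried after seeing the data, Atp5l, Uqcrb, Ndufc2 and Cox7c turned to -2.69, -2.61, -0.29 and -2.66, and without SPF day 7 replicate 2 only 1 member was called. The member median was 1.1, or 0.64 with plain totals, against 0.56 and 0.12 for the abundant genes. The test of the difference between the day 7 responses of GF and SPF mice called 1 of 83 members in edgeR (all genes lower 6.76%).

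GC content moved with these values. Over the 83 members the log2 fold change and GC content had a Spearman correlation of -0.46 for GF day 7 against GF sham, -0.54 against GF day 3 and -0.49 against SPF day 7. Over 1648 abundant genes it was -0.53, -0.73 and -0.63. For SPF day 3 against sham it was 0.22 over the members. These are descriptions across genes that share the same libraries. The 16 members called higher in any day 7 comparison had a median GC content of 48.4% (37.0 to 52.8%) and a median transcript length of 649 bases, against 50.3% (37.0 to 63.3%) and 809 bases over all 83. The 4 called lower, with Cox4i2 at the floor left out, had 52.3% and 1784.5 bases. With GC offsets more members were called on GF day 7 against GF sham, GF day 3 and SPF day 7, and the member medians were larger. With length offsets added, these medians were smaller than without offsets. The part of base composition and length in the calls was not tested. The GF day 7 libraries also had 9185 to 11043 detected genes and 3.69 to 6.45% of counts in mitochondrial genes.

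**Figure D5:**
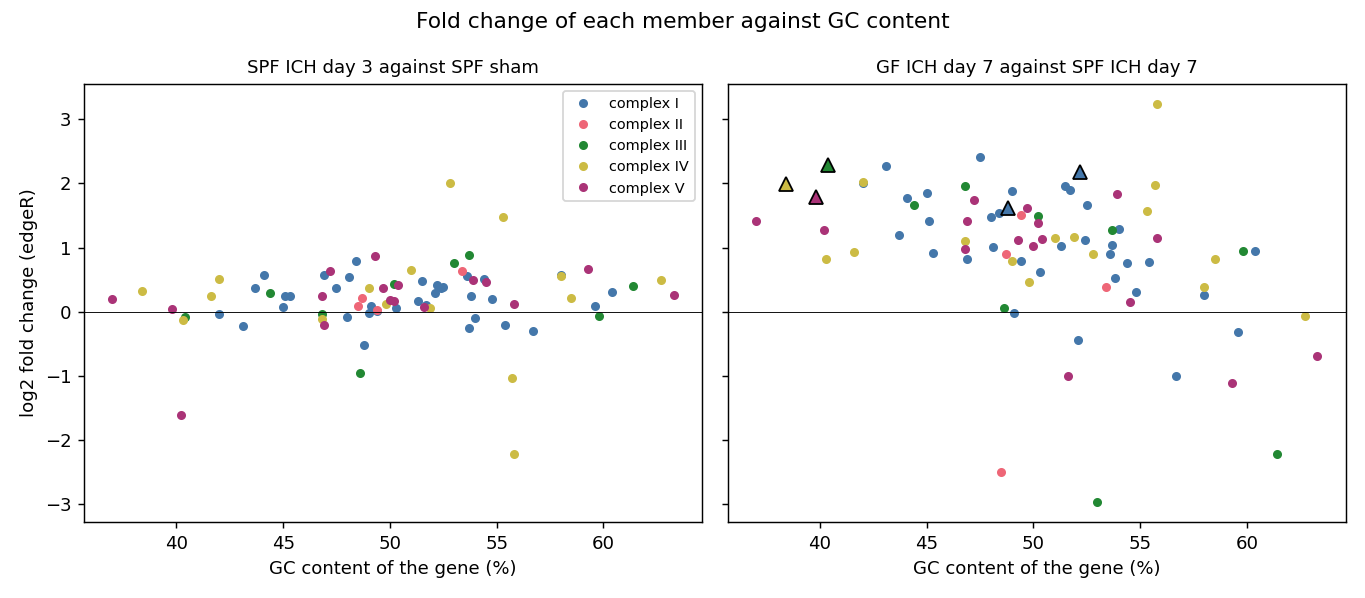
Log2 fold change of 81 members (points, colored by complex, triangles where the adjusted p is under 0.05) against the GC content of the gene in percent, for SPF day 3 against sham (left) and GF day 7 against SPF day 7 (right). Cox4i2 is not drawn, and the Spearman correlation over all 83 members is 0.22 on the left and -0.49 on the right.

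In sham mice and on day 3 no member passed the test of ABX or GF mice against SPF mice. ABX sham against SPF sham called 0 of 83 members in edgeR (all genes 0%), with 1 higher and 0 lower at an unadjusted p under 0.05 (DESeq2 0, limma voom 0 called) and a median of 0.42. GF sham against SPF sham called 0 (all genes 0.00569%), with 7 higher and 0 lower at an unadjusted p under 0.05 (DESeq2 3, limma voom 0 called) and a median of 0.62, or 0.31 with plain totals. The smallest p there was that of Ndufa11, an accessory subunit of complex I, at 51.4, 66.6 and 40.2 CPM in SPF and 337, 160.2 and 357 in GF sham, 2.43 ± 0.61 (SE, adjusted p = 0.671) in edgeR. Its groups did not overlap, and ABX sham was at 149, 233 and 95.9 CPM. On day 3 neither ABX (all genes 0%) nor GF mice (all genes 0%) had a called member against SPF mice, and the medians were 0.2 and 0.13. Neither comparison had a member at an unadjusted p under 0.05 in edgeR, and DESeq2 and limma voom called 0. On day 7, ABX against SPF mice called 0 members in edgeR (all genes 0.0854%; 32 higher and 0 lower at an unadjusted p under 0.05; DESeq2 20, limma voom 3 called), and the median was 1.23, or 0.44 with plain totals. No member passed the test of a different response between ABX and SPF mice on day 3 (0% of all genes) or day 7 (0%), or between GF and SPF mice on day 3 (0%). At an unadjusted p under 0.05 these edgeR tests had 0, 4 and 1 members, DESeq2 called 0, 3 and 0, and limma voom called 0 in each.

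Averaged over the 3 microbiota conditions, no member passed on day 3 after ICH (edgeR, 0 of 83, all genes 1.3%), with 3 higher and 1 lower at an unadjusted p under 0.05 (DESeq2 2, limma voom 0 called). The 4 isoforms under 10 CPM in 23 to 27 libraries (Cox4i2, Cox8b, Cox7a1 and Cox6b2) were left out of the ranking. The 5 largest positive values were then Cox6a2 (2.43), Cox5a (0.82), Ndufa10 (0.81), Cyc1 (0.58) and Ndufs3 (0.45). The 5 largest negative ones, with the same 4 left out, were Ndufc2 (-0.64), Sdha (-0.61), Ndufa6 (-0.60), Ndufa11 (-0.51) and Uqcrfs1 (-0.47). Of those left out, Cox8b was at -3.20, Cox6b2 at -1.58 and Cox7a1 at -0.52. On day 7 the averaged response called 13 of 83, 12 higher (all genes 3.72%) and 1 lower (all genes 16.5%). With GC and length offsets Atp5l, Uqcrb, Cox6b1, Ndufc2 and Cox7c of the 12 turned negative, and no member was called over SPF and ABX alone. The 12 were 4 of complex I (Ndufa1, Ndufa9, Ndufb4, Ndufc2), Uqcrb of complex III, 3 of complex IV (Cox6a2, Cox6b1, Cox7c) and 4 of complex V (Atp5c1, Atp5e, Atp5j, Atp5l). After Cox6a2 the largest were Ndufa1 (1.68 ± 0.50, adjusted p = 0.0239), the ε subunit Atp5e (1.57 ± 0.48, adjusted p = 0.0257) and Atp5c1 (1.57 ± 0.42, adjusted p = 0.0131) in edgeR. Ndufs4, an accessory subunit needed for the stability of complex I, had a value close to theirs but was not called (1.49 ± 0.60, adjusted p = 0.0771).

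The levels of these genes differed between the conditions averaged. Ndufa1 was at 15.2 to 31 CPM in SPF sham and 23.5 to 48.6 on SPF day 7, at 22.9 to 46.1 and 94.5 to 219.8 in ABX mice and at 1.61 to 65.3 and 174 to 224 in GF mice. Atp5e was at 36.9 to 58.6 and 48.9 to 103 CPM in SPF, 36.7 to 74.5 and 244 to 513 in ABX and 2.09 to 119.9 and 109 to 313 in GF mice. The SPF groups overlapped in both genes, the ABX groups in neither, and the GF groups in Atp5e only. Cox6b1 (0.86 ± 0.27) and Atp5j (0.84 ± 0.26), the smallest of the called rises, lie at the outer face of complex IV and in the stator of complex V. Negative values that were not called included Uqcrc1 (-1.23), Sdha (-1.18), Atp5d (-0.88) and Cyc1 (-0.65) in edgeR. Of the 12 called higher, Cox6a2 and Atp5c1 held in all 27 fits without 1 library, and Ndufc2 and Cox7c in 6 and 4. The Atp5c1 call was lost with plain totals, with abundant genes only and over SPF and ABX alone (adjusted p up to 0.226 in edgeR). That of Cox6a2 was lost over SPF and ABX alone. The member median was 0.66, or 0.29 with plain totals and -0.01 with GC and length offsets, and the number called ran from 3 without SPF sham replicate 1 or ABX sham replicate 3 to 24 without GF sham replicate 3.

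Day 7 against day 3, averaged in the same way, called 14 members, 12 higher (all genes 3.34%) and 2 lower (all genes 16.8%), Cox4i2 at the floor among the latter. The largest rises were Ndufa1 (1.69 ± 0.50), Ndufc2 (1.54 ± 0.30), Uqcrb (1.48 ± 0.34), Uqcrh, the hinge protein of complex III (1.40 ± 0.47), and Sdhd (1.37 ± 0.49), with adjusted p from 0.00178 to 0.0484 in edgeR. With GC and length offsets Uqcrb and Uqcrh were at -1.08 and -0.13. Sdhd was the 1 complex II gene called higher in any comparison. It was at 87, 102 and 90.6 CPM on SPF day 3 and 91, 70.4 and 109 on day 7. In ABX mice it was at 105, 81.5 and 43.6 CPM on day 3 and 954, 204 and 338 on day 7, and in GF mice at 93.1, 97.4 and 87.6 on day 3 and 155, 215 and 398 on day 7. The Sdhd call held in 3 of 27 fits without 1 library. Atp5c1, Atp5e, Atp5l, Ndufb4, Ndufa9, Cox6c and Cox7c were the others called higher. Negative values of members above the floor included Uqcrc1 (-1.56), Cyc1 (-1.23), Atp5d (-1.15) and Sdha (-0.57), none of them called. The median over all members was 0.58, against 0.62 over the abundant genes and -1.17 over all genes tested. Of the 83 members, 37 lay above the median of the abundant genes. No member was called over SPF and ABX alone. By complex the medians were 0.58, 0.46, 0.59, 0.59 and 0.63 for I to V. With plain totals the member median was 0.12.

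Most of the 13 subunits encoded in the mitochondrial genome rose on day 7. In the averaged day 7 response 12 of 13 rose and 0 fell (edgeR, all genes 3.72% higher, median 1.31), with mt-Nd1, a core membrane subunit of complex I, at 1.5 ± 0.20 (SE, adjusted p = 3.66e-05) and mt-Cytb, the cytochrome b of complex III, at 1.43 ± 0.20 (adjusted p = 5.36e-05). No member of this list passed in SPF mice on day 3 or day 7 (all genes 0.102% and 0.0797%). In ABX mice 8 of 13 rose on day 7 (all genes 0.945% in either direction), and in GF mice 10 (all genes 1.7% higher). The level of mt-Nd1 was 604, 1000.4 and 983 CPM in SPF sham and 1375, 476 and 739.8 on SPF day 7. It was 532, 708 and 777 in ABX sham and 2069.9, 3333 and 3888 on ABX day 7, and 644, 900.0 and 798 in GF sham and 2648, 3932 and 4993 on GF day 7. In ABX and GF mice every day 7 library was above every sham library, and in SPF mice they overlapped. The test of the difference between the GF and SPF responses on day 7 called mt-Nd1 at 2.30 ± 0.49 (SE, adjusted p = 0.00794) in edgeR. The TMM factors were 0.477 to 0.843 in the ABX day 7 and 0.735 to 0.882 in the GF day 7 libraries, against 1.035 to 1.308 in the others but GF sham replicate 1 (0.518), and a smaller factor raises every CPM value of its library. As a share of all counts, which no factor touches, mitochondrial genes took 1.94 to 3.52% on ABX day 7 against 1.01 to 1.54% in ABX sham, and 3.69 to 6.45% against 1.17 to 1.48% in GF mice. The ABX day 7 range overlapped other groups, with 2.19% in ABX day 3 replicate 3 and 2.33% in SPF day 7 replicate 1. The share holds all mitochondrial genes and not only the 13 subunits. The part of base composition in it was not tested.

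Genes that build and feed the chain were compared with the 16.5% of all genes called lower and the 3.72% called higher in the averaged day 7 response. Of 45 tested assembly factors, 0 rose and 6 fell in the averaged day 7 response (edgeR, median 0.04), among them the complex I factor Ecsit (adjusted p = 0.00152), Bcs1l, which inserts the Rieske protein into complex III (0.0168), and the heme synthesis enzymes Cox10 (0.0214) and Cox15 (0.035). Of 18 genes of the tricarboxylic acid cycle and pyruvate dehydrogenase, 4 fell and 0 rose (median -0.19). Citrate synthase (Cs) was at 0.189, 0.169 and 0.273 CPM on GF day 7 and 1.23, 0.433 and 6.14 on ABX day 7, against 52.5, 44.6 and 50.2 on SPF day 7. It was thus under 7 CPM in all 6 day 7 libraries of ABX and GF mice, and GF sham replicate 1 had 0.242 CPM.

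Of 16 regulators of mitochondrial biogenesis, 4 fell and 0 rose in the averaged day 7 response in edgeR (Yy1, Nrf1, Esrra and Tfb1m, adjusted p = 0.0047 to 0.0249). Nrf1, whose motif is shown above, was at 0, 0.15 and 0.0841 CPM on GF day 7 and 0, 0 and 4.15 on ABX day 7, against 5.15, 14.3 and 24.4 on SPF day 7. It was at 0, 43.4 and 26.9 CPM in GF sham, 27.3, 30.4 and 28.8 on GF day 3 and 24.3, 43.4 and 19.9 in ABX sham. Its highest value in any library was 46.6 CPM, in ABX day 3 replicate 1. Ppargc1a, the coactivator known as PGC-1α, had at most 8 CPM in any library; it, Cycs and the Nrf1 levels were picked after their values were seen. Of 20 tested electron carriers, quinone synthesis and exchange genes, 1 rose, Etfa (1.48 ± 0.45, adjusted p = 0.0252), and 3 fell, the quinone synthesis genes Coq6, Coq9 and Pdss2, in edgeR. Ucp2, an uncoupling protein of myeloid cells, fell on GF day 7 (1.62, 123 and 2.29 CPM against 1887, 1239 and 424 in GF sham, -4.81 ± 1.11, adjusted p = 0.006). Cytochrome c (Cycs) was not called, at 300.1, 494 and 469 CPM on GF day 7 and 334, 159 and 326 in GF sham. The part of the libraries with few detected genes in these falls was not tested.

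Some members share sequence with other annotated genes, between which the authors' counting could divide reads. A match of at least 200 bases at 95% identity was present for 27 of the 83. For 6 members it was in a gene that overlaps at their own locus, such as Mrpl47 for Ndufb5 (20.6% of its count) and Smim27 for Ndufb6 (7.87%). For 22 a copy lay elsewhere, and in 7 of them such copies held over 10% of the member's own count. These were Atp5g2 (40.6%), Atp5g1 (20.0%), Cox5b (12.4%), Atp5h (11.3%), Ndufa12 (11.2%), Atp5l (10.8%) and Ndufab1 (10.3%). For Uqcrc1, Sdha, Atp5b and Cox6a2 no such copy was found, and Atp5c1 had one that held 0.0323%. Some members, Ndufs6 among them, also overlap a gene on the other strand: Mrpl36 held 106% of the count of Ndufs6 and Eef1b2 70.0% of that of Ndufs1, so their counts are uncertain.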

How the data were processed

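RNA of sorted mouse microglia was sequenced as 27 libraries in 9 groups of 3. The values are counts per gene deposited by the authors in 1 table, whole numbers that were not normalized, per the file headers and the values. Tools listed without role or order are HISAT2 2.0.4, cutadapt 1.9, edgeR and StringTie 1.3.4d, with the build mm10, per the submitters' processing notes. The annotation, the counting tool and its strand setting are not given in the sources used here, and low-input libraries were made with SMART-Seq v4, per the labels' protocols.

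Genes were filtered with filterByExpr (17573 kept), scaled with TMM and fitted with edgeR 4.0.16 (quasi-likelihood, limma 3.58.1, R 4.3.3) on the 9 group means, with Benjamini-Hochberg adjustment over all genes tested and 0.05 as the threshold. CPM refer to the TMM-scaled library size. Low libraries are those with under 12000 detected genes, and abundant genes are the 1655 with a mean of at least 100 CPM. Transcript lengths, GC content and overlaps came from GENCODE M21, promoters from RefSeq. The fit was tried on simulated counts with known changes in abundant genes for SPF day 3 against sham only. The day 7 comparisons were not covered by it. The alternatives were DESeq2 1.42.0, limma voom, DESeq2 size factors, no filter, a replicate block, GC offsets, leaving out low libraries and each library. GC with length offsets, plain totals, abundant genes only, and averages over SPF and ABX were chosen after seeing the data.

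Members and gene lists were chosen with earlier results of these data known. Named were called members (at most 10 a direction), the 3 highest and 1 lowest per kilobase in each complex, members picked for their role, the 5 largest rises and falls of each averaged comparison, and up to 4 called genes per pathway list. All counts are over the 83 members, and the values of 1 member and of 1 pathway gene are not reported here.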

Additional observations from a re-analysis of the deposited data

How the results depend on the processing

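Leaving out 1 library in turn, the members called ran from 4 (without GF sham replicate 2) to 15 (without GF sham replicate 3) for GF day 7 against sham, 4 (GF day 3 replicate 1) to 16 (GF sham replicate 1) for GF day 7 against day 3, and 1 (SPF day 7 replicate 2) to 18 (GF sham replicate 1) for GF against SPF day 7. They ran from 3 (SPF sham replicate 1) to 24 (GF sham replicate 3) for the averaged day 7 response, 5 (SPF day 3 replicate 1) to 20 (GF sham replicate 1) for averaged day 7 against day 3, and 1 to 3 for the GF minus SPF difference on day 7. From 0 they reached 5, 7 and 6 for ABX day 7 against sham, day 3 and SPF without GF sham replicate 1, 2 and 1 for GF day 3 against sham and GF against SPF sham without GF sham replicate 3, and 1 for averaged day 3 without ABX day 7 replicate 1. Medians ran from 0.73 to 1.12 for GF day 7 against day 3 and -0.74 to 0.05 for the GF minus SPF difference on day 3.

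DESeq2 called 1 member in each SPF response, 18, 13 and 20 for ABX day 7 against sham, day 3 and SPF, 2 for GF day 3, 11, 14 and 13 for GF day 7 against sham, day 3 and SPF, 3 between GF and SPF sham, 3 and 6 for the ABX and GF differences on day 7, and 2 for averaged day 3. Limma voom called 1 for ABX day 3, 4, 2 and 3 for ABX day 7 against sham, day 3 and SPF, 31 and 28 for GF day 7 against day 3 and SPF, 5 for the GF difference and 28 for averaged day 7 against day 3, with medians of 0.74 (ABX day 7 against sham), 0.92 (against SPF), 0.42 (ABX difference) and 0.70 (GF day 7 against day 3).

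Without the libraries under 12000 detected genes no GF day 7 library was left, and ABX day 7 and GF sham kept only replicate 3 each. The ABX day 7 values of that fit therefore rest on 1 ABX day 7 library. Its GF day 3 values and the averaged day 3 count rest on 1 GF sham library. No spread between libraries can be measured in such a group, so these counts and medians are not replicated group comparisons. ABX day 7 then had 11, 10 and 12 called against sham, day 3 and SPF, ABX day 3 had 1 and averaged day 3 had 2, with medians of 0.60 and 0.75 (ABX day 7 against sham and SPF), 0.38 (ABX difference on day 7), -0.79 (GF day 3) and -1 (GF difference on day 3). GC offsets called 1 each for ABX day 7 against sham and day 3, 23, 27 and 22 for GF day 7 against sham, day 3 and SPF (medians 1.45, 1.49, 1.54), and 27 and 31 for averaged day 7 against sham and day 3, with a median GF difference of 1.18. Cox7c was then at -0.24 for GF day 7 against day 3 and -0.08 in the average, and Atp5f1 at -0.62.

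GC and length offsets called 1 each for ABX day 7 against sham and day 3, 11 each for GF day 7 against sham and SPF and 7 for the GF difference. The medians were 0.01 (SPF day 3), 0.22, 0.53 and 0.57 (ABX day 7 against sham, day 3, SPF), -0.24, 0.33 and 0.15 (GF likewise), 0 (GF against SPF day 3), 0.28 and -0.33 (ABX and GF differences on day 7) and -0.01 (averaged day 7). Reversed were Atp5f1, Uqcrb, Ndufa1 and Cox7c (-0.97, -2.80, -0.22, -2.96) for GF day 7 against day 3, Atp5l, Uqcrb, Ndufc2 and Cox7c (-2.69, -2.61, -0.29, -2.66) against SPF, Atp5l, Uqcrb, Cox6b1, Ndufc2 and Cox7c (-1.47, -1.65, -0.18, -0.43, -1.61) in averaged day 7, and Atp5l, Uqcrb, Uqcrh, Cox6c and Cox7c (-1.15, -1.08, -0.13, -0.46, -1.45) in averaged day 7 against day 3.

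With abundant genes only the medians were 0.17, -0.06 and 0.32 (ABX day 7 against sham, day 3, SPF), 0.38 and 0.51 (GF day 7 against day 3, SPF), 0 (ABX difference on day 7) and 0.05 (averaged day 7 against day 3), with 2 called for the GF difference and 3 and 6 for averaged day 7 against sham and day 3. With plain totals they were 0.18, 0.10 and 0.44, 0.56 and 0.64, 0.08 and 0.12, with 3 and 7 called in those averages. Without the filter 4, 4 and 1 were called for GF day 7 against sham, day 3 and SPF and 3 and 4 in the averages. DESeq2 size factors gave 3 for GF against SPF day 7 and 5 for averaged day 7. Over SPF and ABX alone 0 were called in both averages. The cause of these changes was not tested.

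Same-numbered libraries of different groups had a mean correlation of deviations of -0.007, and 7 of 27 correlated best with their own number. The values thus show no shared signal by number. They cannot show whether samples were handled in pairs, because pairing need not leave such a signal. The replicate block called 6 for GF day 7 against sham and 11 for averaged day 7, within 1.5 times the values without it.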

Other observations

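The isoforms Cox8b and Cox6b2 were high together in single libraries of different groups. In ABX sham replicates 1 and 2 they were at 9.17 and 12.8 CPM and at 13.4 and 19.5 CPM, and in replicate 3 at 1.87 and 2.97. These libraries were picked after their values were seen.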
